A study of Mus musculus with 2 samples.

Results

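Glycolysis genes of the sperm lineage were followed in single mouse testis cells, with isoforms made in germ cells set against the general forms of the same enzymes. The 10 members were given by symbol, out of 25065 symbols, with Gapdhs, Pgk2, Ldhc and Aldoart1 as germ cell forms, and Gapdh, Pgk1, Ldha, Hk1, Tpi1 and Pgam1 as general ones. The cells came from adult male C57BL/6 mice, C57BL/6N and 10 to 12 weeks old by the study's methods, which were either wild type (WT) or carried a CRISPR/Cas9 deletion of all of the Tex13a reading frame (KO). Testes of 3 mice were pooled for each genotype, digested with collagenase I and captured on barcoded beads in microwells, which gave 1 library per genotype. The cell table names 13 clusters, which are spermatogonia (Sg), spermatocytes (Sc1 and Sc2), a mixed cluster of spermatocytes and early spermatids (Sd1) and spermatids from early to late (Sd2 to Sd10). Tex13a is an X-linked gene of spermatids.

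The symbol list is shorter than the matrix of 26758 rows, so a symbol was read only where the order of the list left 1 possible row. This held for 6 of the 10 members, namely Hk1, Tpi1, Gapdhs, Pgk2, Ldhc and Ldha. All 6 also had 1 possible row when rows seen in 5 or more cells could lack a symbol too. The mitochondrial rows between which the order was kept were still placed by the stricter rule. The other 4 members, Gapdh, Pgk1, Pgam1 and Aldoart1, can each stand for 4 to 12 rows and were given no value. The deleted gene Tex13a has 7 possible rows. Of these, 1 held 2295 unique molecular identifiers (UMIs, counted molecules) in WT and 0 in KO, and each of the others held UMIs in both libraries, with 22 to 1640 in WT. No row was assigned to Tex13a, since choosing it by these values would presume the genotype. Among all rows that the order allows for it, none exceeded 44.7 UMIs per 1000000 UMIs of the cluster (CPM) for Gapdh in WT Sd10 or 31.2 CPM in KO Sd10. For Pgk1 these upper limits were 1.597 and 2.27 CPM. In WT and KO Sd10 they were 287 and 337 CPM for Aldoart1, and over all clusters no row allowed for Pgam1 exceeded 7.31 CPM. These limits hold for counted molecules only. Of the 50-base stretches of the longest Gapdh transcript, 82.5% also occur in transcripts of 218 other annotated genes. A read no longer than such a stretch cannot be placed in 1 gene. The study's reads were longer, and how many of them could be placed was not tested. The share of such stretches was 68.0% for Pgk1 and 41.5% for Pgam1, 16.6% for Ldha, 7.51% for Tpi1, and 0% for Gapdhs, Pgk2, Hk1 and Ldhc. Within the last 500 bases, from which bead libraries mostly read, it was 90.5% for Gapdh, 7.32% for Pgk1, and 0% for Pgam1, Aldoart1 and all 6 members that were read. Gapdhs with Gapdh and Pgk2 with Pgk1 were therefore not set against each other, and Ldhc with Ldha was the 1 pair of isoforms with both genes read.

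Glycolysis turns glucose into pyruvate, and lactate dehydrogenase turns pyruvate into lactate and back. Sperm carry much of this pathway along the tail, in the principal piece, where it supplies ATP for swimming. Several steps are served there by isoforms that only male germ cells make: Gapdhs is glyceraldehyde-3-phosphate dehydrogenase of the fibrous sheath, Pgk2 is a phosphoglycerate kinase encoded by a retrogene that stands in for the X-linked Pgk1 when the X chromosome is silenced in meiosis, and Ldhc is the lactate dehydrogenase subunit of the testis. Hk1 is hexokinase, the entry step, and has start sites used in germ cells. Tpi1 is triose-phosphate isomerase, and Ldha is the muscle-type subunit of lactate dehydrogenase.

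Positions are from GENCODE vM21 on GRCm38, which is the mm10 build of the reads. Gapdhs (ENSMUSG00000061099.12) lies on the minus strand of chromosome 7 from 30729775 to 30743681, and its longest coding transcript has 11 exons. Pgk2 (ENSMUSG00000031233.6) lies on the minus strand of chromosome 17 from 40207015 to 40208640 in 1 exon. Ldha (ENSMUSG00000063229.15) runs from 46841475 to 46855627 on the plus strand of chromosome 7 and Ldhc (ENSMUSG00000030851.15) follows it on the same strand from 46861203 to 46878142, with 5576 bases between the 2 genes and 8 exons in the longest coding transcript of each. Hk1 (ENSMUSG00000037012.18) spans chromosome 10 from 62268855 to 62379908 and Tpi1 (ENSMUSG00000023456.15) chromosome 6 from 124810586 to 124814296, both on the minus strand. Hk1, Tpi1 and Gapdhs overlap genes on the other strand, which are Hk1os for Hk1, Spsb2 for Tpi1, and Gm26935 and Tmem147os for Gapdhs. Whether counting used the strand is not given in the sources used here, so reads from where these genes overlap their partners may not be told apart. The overlap is that of whole gene spans, and exons were not compared. The longest identical run between the longest coding transcripts of Ldhc and Ldha was 20 bases at 66.1% identity of aligned bases, and between Gapdhs and Gapdh 20 bases at 64.9%.

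Start regions of members with a like course over the clusters are shown here, late ones (Gapdhs, Pgk2, Hk1) and then the early ones (Ldhc, Ldha). That of Tpi1, also late, is not shown. Each is the RefSeq window of 250 bases before to 50 bases after a start site on GRCm38.p6, printed 5′ to 3′ on the strand of the gene. The windows are chr7:30743632-30743931 for Gapdhs, chr17:40208560-40208859 for Pgk2 and chr10:62379859-62380158 for Hk1, all on the minus strand, and chr7:46861013-46861312 for Ldhc and chr7:46845554-46845853 for Ldha on the plus strand. RefSeq held a window for 9 of the 10 members, and it lists another start for Gapdhs, Hk1, Ldhc and Ldha. Capitals mark matches, on either strand, to the full cAMP response element TGACGTCA, known as the site of CREM in spermatids, its first part TGACG, the variant TGACATCA, the GC box GGGCGG, the CCAAT box and TATAAA. A full element counts for TGACG too, which lies within it. The motifs were picked with the sequences in view.

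Gapdhs: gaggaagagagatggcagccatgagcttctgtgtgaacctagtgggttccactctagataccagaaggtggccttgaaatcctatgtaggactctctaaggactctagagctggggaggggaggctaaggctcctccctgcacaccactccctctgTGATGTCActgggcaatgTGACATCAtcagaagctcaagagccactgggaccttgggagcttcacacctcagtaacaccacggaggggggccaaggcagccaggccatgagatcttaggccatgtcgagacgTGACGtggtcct
Pgk2: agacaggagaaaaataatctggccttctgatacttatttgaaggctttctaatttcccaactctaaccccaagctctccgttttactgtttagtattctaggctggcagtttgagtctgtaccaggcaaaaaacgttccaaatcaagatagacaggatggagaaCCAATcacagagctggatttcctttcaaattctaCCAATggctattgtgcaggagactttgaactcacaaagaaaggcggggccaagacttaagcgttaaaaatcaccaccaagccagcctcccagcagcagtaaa
Hk1: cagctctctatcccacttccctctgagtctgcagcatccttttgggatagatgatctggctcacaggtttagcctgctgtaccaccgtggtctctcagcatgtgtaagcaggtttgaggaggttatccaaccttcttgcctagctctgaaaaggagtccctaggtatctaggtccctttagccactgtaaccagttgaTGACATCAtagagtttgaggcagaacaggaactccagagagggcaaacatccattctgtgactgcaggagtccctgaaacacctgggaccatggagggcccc
Ldhc: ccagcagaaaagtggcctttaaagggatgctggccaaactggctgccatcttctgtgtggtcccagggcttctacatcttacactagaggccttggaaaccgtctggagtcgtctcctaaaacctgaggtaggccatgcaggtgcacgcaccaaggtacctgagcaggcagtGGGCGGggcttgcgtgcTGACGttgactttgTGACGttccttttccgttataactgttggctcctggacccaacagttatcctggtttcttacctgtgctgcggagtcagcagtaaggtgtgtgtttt
Ldha: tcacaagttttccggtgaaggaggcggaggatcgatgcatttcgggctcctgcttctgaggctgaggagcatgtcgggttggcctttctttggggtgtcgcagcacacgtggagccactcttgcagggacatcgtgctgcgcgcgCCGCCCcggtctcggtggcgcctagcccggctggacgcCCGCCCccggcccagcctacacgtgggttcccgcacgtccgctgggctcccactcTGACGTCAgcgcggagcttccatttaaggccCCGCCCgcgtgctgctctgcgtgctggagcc

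The window of Gapdhs held TGACATCA on both strands, with first bases at -94 and -76 from the start site and TGACG at 39 after it, and that of Hk1 held it at -52. This variant occurred in 3.62% of 32851 RefSeq start windows. The window of Ldhc held TGACG at -61 and -47 beside a GC box at -78. That of Ldha held the full TGACGTCA at -12, a match found in 1.79% of windows, and 3 GC boxes. The window of Pgk2 held the CCAAT box at -86 and -52 and no match to the response element. That of Tpi1, not shown, held only a GC box, at -67. Of the other listed starts, those of Hk1 and Ldhc held no match to any of these motifs. The other start of Gapdhs held TGACATCA at -70 and -52, and that of Ldha held TGACG at -143. TGACG alone was in 20.8% of windows, the GC box in 35.7%, CCAAT in 37.4% and TATAAA in 13.6%, and the last was in none of the 5 windows shown. A match is a string of letters, and no binding was measured here.

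The WT library held 5170 cells with 45568532 UMIs, and the KO library 7238 cells with 67734689 UMIs. Of 12408 cell barcodes 0 were shared by the libraries. The sum of a cluster ran from 1020887 to 7108850 UMIs in WT and from 749010 to 12722633 in KO, in 99 to 1057 cells. Germ cell markers mostly sat where the cluster names place them. In WT, Kit and Uchl1 of spermatogonia were highest in Sg at 22.5 and 511 CPM. Stra8 of germ cells entering meiosis, listed with them, was highest in Sc1 at 4287 CPM beside 850 CPM in Sg. Acrv1 of round spermatids was highest in Sd4 at 885 CPM. Of the markers of elongating spermatids, Prm2 was highest in Sd10 at 110257 CPM, Prm1 and Tnp1 in Sd8 and Tnp2 in Sd7. All 7 markers of spermatocytes, all 6 of round spermatids and all 7 of elongating spermatids were read, and each was highest in the same cluster in KO as in WT. Of 6 macrophage markers 2 were read, with a summed level of 1.89 to 117 CPM in WT clusters and 1.02 to 49.4 CPM in KO clusters. Of 4 red cell markers 3 were read, with a summed level of 2.46 to 542 CPM in WT and 4.51 to 784 CPM in KO. The Sertoli and endothelial markers were not analysed here. Cyp17a1, 1 of 6 Leydig markers, stayed at or below 10.2 CPM in every cluster, and Myh11, 1 of 4 peritubular markers, at or below 14.0 CPM.

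CPM was taken over the summed cells of 1 cluster and library. Brackets or ranges given with a level are exact 95% Poisson intervals of the UMI count, and those given with a share are exact Clopper-Pearson intervals. All of them cover counting error only, not the spread between mice or libraries. Levels over clusters are a description without a test, because the clusters were made from the genes of these same cells.

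**Figure D1:**
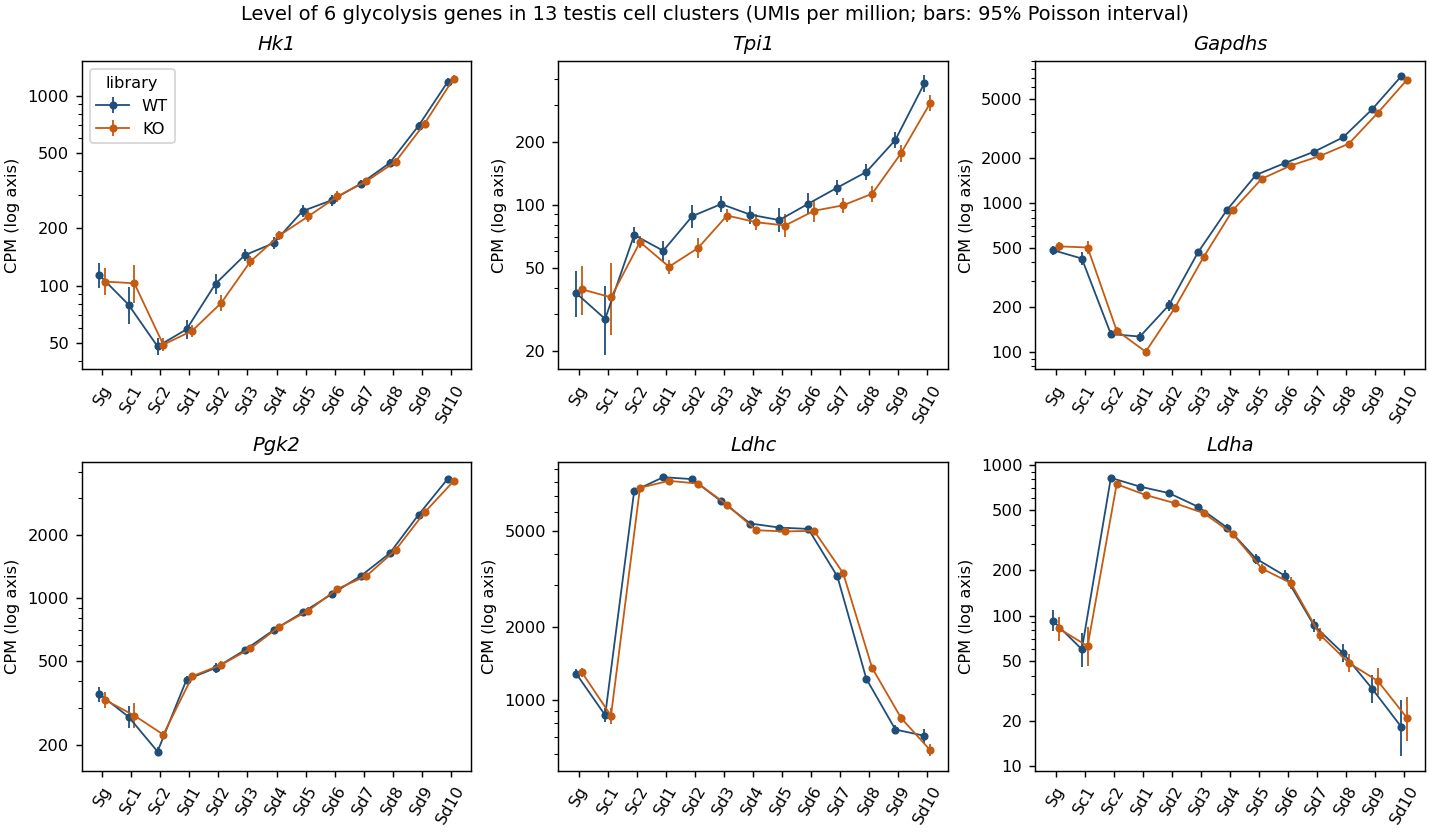
Level of Hk1, Tpi1, Gapdhs, Pgk2, Ldhc and Ldha in CPM (vertical axis, log scale) over the 13 clusters (horizontal axis) in the WT library (blue) and the KO library (orange), with 95% Poisson intervals as bars. Hk1, Tpi1, Gapdhs and Pgk2 were highest in Sd10 in both libraries, while Ldhc and Ldha were highest in Sc2 or Sd1 and lowest in Sd10.

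The members fell into 2 courses. Hk1, Tpi1, Gapdhs and Pgk2 had their highest level in Sd10, the latest spermatids, and Ldhc and Ldha had their lowest level there. This was so in both libraries. A highest WT level in Sd10 was found for 4 of 6 members, beside 10% of the 3671 genes with 1 possible row and at least 1000 WT UMIs. Among the 6 members read, the courses did not follow the division into germ cell and general forms, since each course held genes of both kinds. The other 4 members have no value here. Counts per gene also do not separate transcripts from the several start sites of Hk1.

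Gapdhs, which oxidises glyceraldehyde 3-phosphate, had the highest Sd10 level of the 6 members. In WT it stood at 484 CPM in Sg, 424 in Sc1, 132 in Sc2 and 127 in Sd1, and then at 206, 466, 900, 1548, 1862, 2217, 2769, 4273 and 7117 CPM from Sd2 to Sd10. The KO values were 512, 503, 139 and 100.2 CPM from Sg to Sd1 and reached 6748 CPM in Sd10. The highest level was 56.2 times the lowest, that of Sd1, in WT and 67.4 times in KO. In Sd1 the ratio of Gapdhs to Prm1, a protamine of condensing spermatids, was near that of the whole library, as given below. The Sd1 level was therefore not read as expression, and the fold over it was not ranked among the members. From Sd1 on, each WT cluster lay above the one before it, with intervals apart. Among neighbours in the order of levels, only Sg and Sd3, Sd3 and Sc1, and Sc2 and Sd1 had intervals that overlapped in WT.

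Counted per cell, Gapdhs went from a mean of 1.31 UMIs in WT Sd1 cells to 48.5 UMIs in WT Sd10 cells, and from 1.16 to 42.8 UMIs in KO. The median Sd10 cell held 41.5 UMIs in WT, with quartiles of 28 and 58, and 38 UMIs in KO, with quartiles of 27.3 and 53. The ranges of cells of the 2 libraries overlapped over most of their width. The share of cells with at least 1 UMI, after thinning each cell to 3000 UMIs, was 23.4% in WT Sd1, 71.4% in WT Sd3 and 99.5% in WT Sd10.

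Pgk2, which makes the first ATP of glycolysis, had an even slope over the spermatids. WT levels were 348 CPM in Sg, 271 in Sc1 and 185 in Sc2, and then 408, 464, 563, 703, 853, 1043, 1273, 1633, 2501 and 3703 CPM from Sd1 to Sd10. KO levels in the same order ran from 326, 275 and 223 CPM to 423 CPM in Sd1 and 3607 CPM in Sd10. All 12 pairs of neighbours in the WT order had intervals apart and the same order in KO, which was true of no other member. The highest level was 19.99 times the lowest in WT and 16.2 times in KO. Mean UMIs per cell were 2.70 in WT Sc2 and 25.2 in WT Sd10, and 3.17 and 22.9 in KO. Thinned cells with a Pgk2 UMI were 35.9% in WT Sc2 and 71.3% in WT Sd1, so that the step from Sc2 to Sd1 was the steepest of the series for this share.

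Hk1, the hexokinase that starts glycolysis, followed the same course at a lower level. In WT it stood at 113 CPM in Sg and 47.8 CPM in Sc2, its lowest cluster, at 247 CPM in Sd5, 696 CPM in Sd9 and 1184 CPM in Sd10. In KO the values were 105, 48.8, 232, 712 and 1230 CPM. The highest level was 24.8 times the lowest in WT and 25.2 times in KO. The median Sd10 cell held 6 Hk1 UMIs in both libraries.

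Tpi1, which interconverts the triose phosphates, had the flattest course of the late members. WT levels lay between 60.1 and 101 CPM from Sc2 to Sd6 and then reached 121, 143, 204 and 380 CPM from Sd7 to Sd10. In KO they lay between 50.5 and 93.4 CPM from Sc2 to Sd6 and reached 99.2, 113, 176 and 306 CPM. Of 12 neighbour pairs in the WT order 8 had overlapping intervals, and those apart were Sd10 over Sd9, Sd9 over Sd8, Sd8 over Sd7 and Sd1 over Sg. Sd10 stood 5.31 times above Sc2 in WT and 4.62 times in KO on the CPM scale. Sc2 cells hold more UMIs in all, and counted per cell the means of Tpi1 were closer, at 1.04 UMIs in WT Sc2 and 2.59 in WT Sd10.

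**Figure D2:**
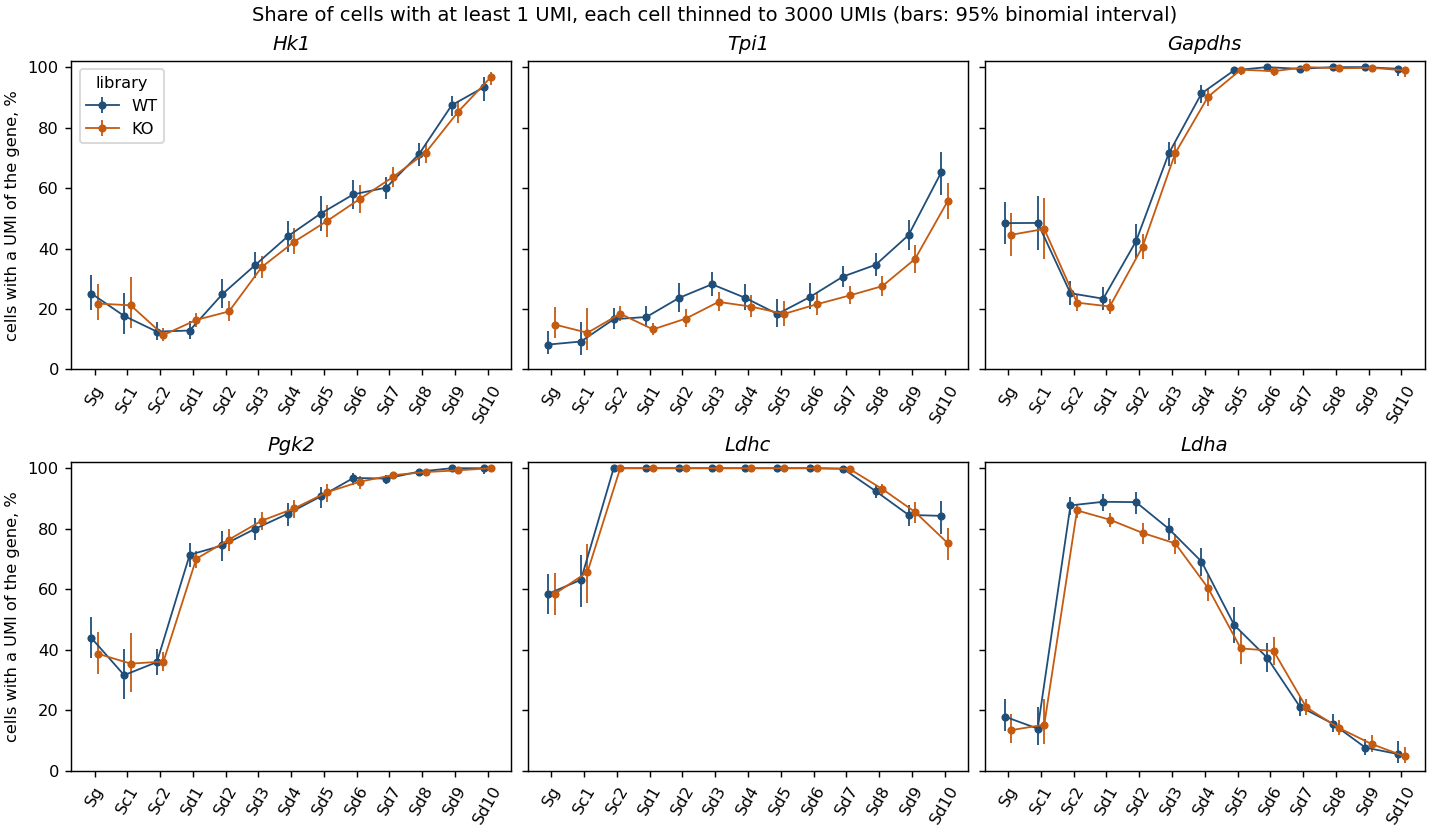
Share of cells with at least 1 UMI of each gene, in percent (vertical axis), over the 13 clusters (horizontal axis), after each cell was thinned to 3000 UMIs, with 95% binomial intervals as bars, for WT (blue) and KO (orange). Gapdhs and Pgk2 reached 99.5% and 100% of WT cells in Sd10, and Ldha 5.43%.

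Ldhc, the testis subunit of lactate dehydrogenase, was already near its highest level in Sc2. WT levels were 1286 CPM in Sg and 865 in Sc1, 7320 in Sc2, 8341 in Sd1 and 8186 in Sd2, between 6632 and 5096 CPM from Sd3 to Sd6, and 3245, 1223, 755 and 711 CPM from Sd7 to Sd10. KO levels were 1300, 861, 7543, 8052 and 7848 CPM from Sg to Sd2, and 3346, 1356, 841 and 620 CPM from Sd7 to Sd10. Sd1 stood 11.7 times above Sd10 in WT and 12.98 times in KO. The WT levels from Sd8 to Sd10 lay below that of Sg, which was not read as expression, as given below. Intervals of Sd1 and Sd2, of Sd5 and Sd6, of Sg and Sd8, and of Sd9 and Sd10 overlapped in WT. Per cell the mean went from 107 UMIs in Sc2 of both libraries to 4.84 in WT Sd10 and 3.93 in KO Sd10, and after thinning every cell from Sc2 to Sd6 held an Ldhc UMI in both libraries.

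Ldha, the general subunit, had its highest level in Sc2, at 818 CPM in WT and 743 CPM in KO. It was lower in each later cluster, with 716, 648, 527, 383, 238, 184, 86.0, 56.3, 32.8 and 18.4 CPM from Sd1 to Sd10 in WT. The KO values over the same clusters were 630, 556, 478, 348, 205, 164, 74.8, 48.6, 36.8 and 21.0 CPM. Sc2 stood 44.6 times above Sd10 in WT and 35.4 times in KO, and the Sd10 level rested on 23 UMIs in WT and 37 in KO. In WT the levels from Sd7 to Sd10 lay below the 92.6 CPM of Sg, which was not read as expression, as given below. After thinning, cells with an Ldha UMI made up 87.7% of WT Sc2 and 5.43% of WT Sd10, with 17.8% in Sg.

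Among the UMIs of both lactate dehydrogenase genes, those of Ldhc made up 89.9% (89.7 to 90.2) in WT Sc2, 92.1% (91.8 to 92.3) in Sd1, 93.3% (93.0 to 93.6) in Sd4, 95.6% (95.2 to 95.9) in Sd5 and 97.4% (97.2 to 97.7) in Sd7. In WT Sd10 the share was 97.5% (96.2 to 98.4). The KO library had 91.0% (90.9 to 91.2) in Sc2, 92.7% in Sd1, 97.8% (97.6 to 98.0) in Sd7 and 96.7% (95.5 to 97.7) in Sd10. From Sc2 to Sd10, Ldhc thus held at least 89.9% of the pair in each cluster of both libraries, and the WT intervals of Sc2 and Sd7 were apart. In WT, Ldha from Sd7 to Sd10 and Ldhc from Sd8 to Sd10 lay below their Sg levels, which were not read as expression. How far the late shares rest on such counts was not tested. The intervals of WT and KO were apart in Sc2, Sd1 and Sd2, with KO above WT in each, and the share does not depend on the library total. It counts mRNA molecules caught by their tails, not enzyme subunits.

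**Figure D3:**
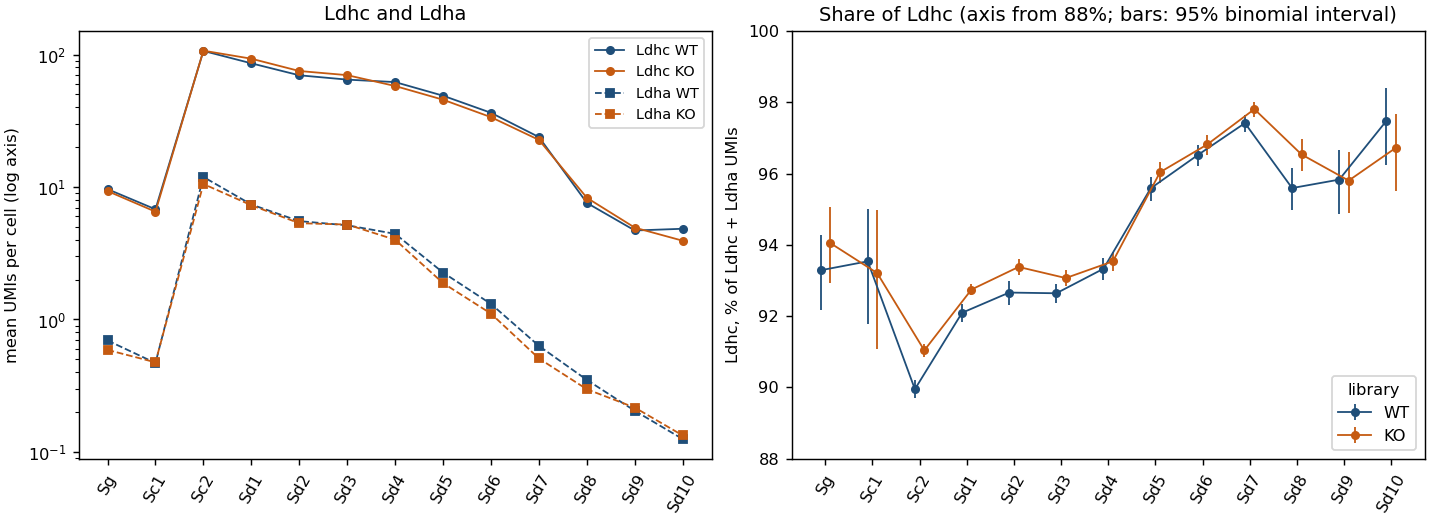
Left, mean UMIs per cell (log axis) of Ldhc (circles, solid lines) and Ldha (squares, dashed lines) over the 13 clusters for WT (blue) and KO (orange). Right, Ldhc in percent of the UMIs of Ldhc and Ldha together, on an axis that starts at 88%, with 95% binomial intervals as bars; the share was 89.9% in WT Sc2 and 97.4% in WT Sd7.

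UMIs of late genes were also counted in cells that should lack them. Prm1, a protamine of condensing spermatids, made up 2.13% of WT Sg UMIs. In these Sg cells 2.27 Gapdhs UMIs were counted per 100 Prm1 UMIs, beside 2.51 over all WT cells, and 1.63 Pgk2 UMIs beside 1.67. For Ldhc the values were 6.03 in Sg and 9.43 over all cells, and for Ldha 0.434 and 0.728. Gapdhs in Sc2 was close to its value over all cells, at 2.46 in WT and at 3.10 beside 2.502 in KO. Gapdhs in Sd1 was near it too, at 3.24 in WT and 2.78 in KO. In WT Sd3 the values were 12.2 for Gapdhs, 14.7 for Pgk2 and 173 for Ldhc. Unthinned, 61.6% of WT Sg cells (median depth 6133 UMIs) held a Gapdhs UMI, beside 43.9% of Sd1 cells (7196 UMIs) and 99.5% of Sd10 cells (5271 UMIs). The Sg and Sc1 levels of Gapdhs, Pgk2, Ldhc and Ldha in WT thus stood below the ratio of the whole library. They were not read as expression there. In WT, Tpi1 in Sg and Sc1 (0.177 and 0.128 beside 0.194) and Hk1 in Sc1 (0.358 beside 0.445) stood below it too. Hk1 in Sg was near the ratio of the whole library, at 0.531 in WT and at 0.508 beside 0.497 in KO. These levels were not read as expression either, nor were those of Gapdhs in Sc2 and Sd1. From Sd5 on the ratio was not used this way, since Prm1 made up 3.80% to 15.8% of WT UMIs there. In WT Sd8 it was 1.75 for Gapdhs and 1.03 for Pgk2. The mean in Sg was carried by few cells. The median Sg cell held 1 Gapdhs UMI and 2 Ldhc UMIs in WT, against a highest cell with 33 and 145.

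The study asked how loss of Tex13a alters the decay of mRNA in late spermatids, and KO was set against WT within each cluster. Each genotype has a single library, so no test was made, and genotype and library cannot be told apart. A gene was counted as apart where KO and WT differed at least 1.5-fold with at least 100 UMIs in both libraries together. Of 76 pairs of a member and a cluster that reached this minimum, 0 were at least 1.5-fold apart, beside 2.96% of 39948 pairs over all genes with 1 possible row. In Sd10, 0 of 5 members were apart, beside 9.88% of 1488 genes. The median log2 ratio of KO over WT of the 6 members in Sd10 was -0.06, beside 0.01 over all genes read there, with a middle 50% of genes from -0.17 to 0.23.

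**Figure D4:**
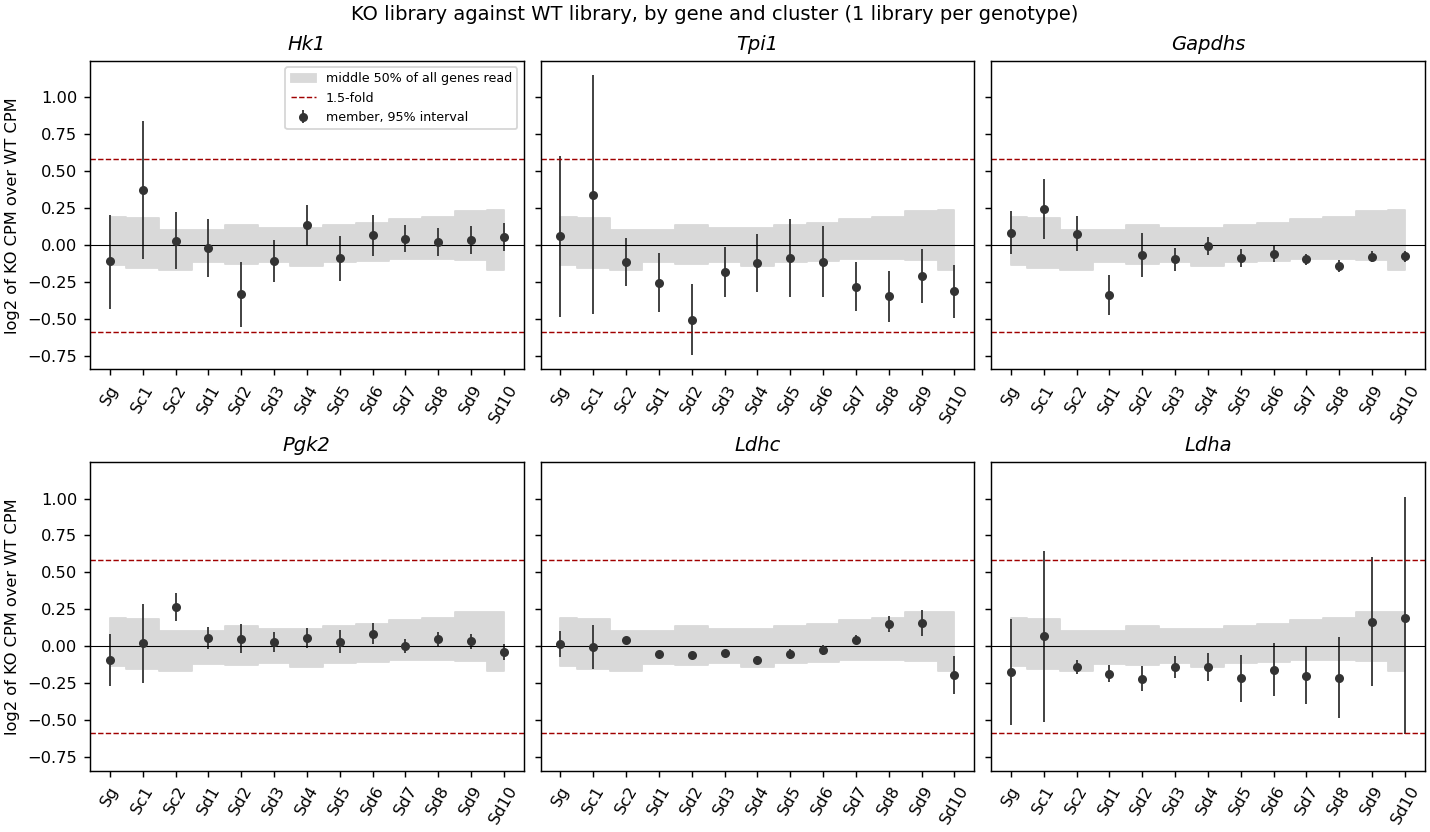
Log2 of KO CPM over WT CPM (vertical axis) for 6 members in 13 clusters (horizontal axis); points with bars are the ratio and its 95% counting interval, the grey band is the middle 50% of all genes read in that cluster, and dashed lines mark 1.5-fold. No point with at least 100 UMIs lay beyond the dashed lines, and Tpi1 lay below 0 in all clusters from Sc2 to Sd10.

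Gapdhs was slightly lower in KO in the 10 clusters from Sd1 to Sd10. The exception was its Sd4 ratio, which turned to 0.02 after centring on the median gene and to values up to 0.03 under 3 other settings. The log2 ratio of Gapdhs lay between -0.34 in Sd1 and -0.01 in Sd4 over these 10 clusters. It was -0.14 (-0.18 to -0.10) in Sd8 and -0.08 (-0.12 to -0.04) in Sd10. In Sg, Sc1 and Sc2 it was 0.08, 0.25 and 0.08, and in Sc1 it was 0.03 after thinning. The Gapdhs levels of Sg, Sc1, Sc2 and Sd1 were not read as expression. Tpi1 was lower in KO in the same 10 clusters and in Sc2, except that thinning turned Sc2 to 0.23 and Sd5 to 0.12, with -0.50 (-0.75 to -0.26) in Sd2, -0.35 (-0.52 to -0.17) in Sd8 and -0.31 (-0.49 to -0.13) in Sd10, where 380 CPM in WT stood against 306 CPM in KO. Only genes with at least 100 UMIs in each of these 10 clusters were counted over them. Being lower in KO in all 10 was true of 2 of 5 members, beside 8.7% of 1287 genes. Being higher in all 10 was true of 0 of 5, beside 11.3%. The count takes in Sd1, a mixed cluster where the Gapdhs level was not read as expression. With the settings just named it would leave Gapdhs or Tpi1 out. This count was chosen after the ratios were seen. The 10 clusters come from the same pair of libraries and are not 10 independent comparisons.

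Ldha was lower in KO in 10 of 13 clusters, and in 7 of them, Sc2 to Sd5 and Sd7, the interval stayed below 0. Its log2 ratio was -0.14 (-0.19 to -0.09) in Sc2 and -0.22 (-0.31 to -0.14) in Sd2. In Sd10 it was 0.19 (-0.60 to 1.01), where too few UMIs were counted to tell a difference. The quartiles of the ratio over all genes read were -0.17 and 0.10 in Sc2, and -0.13 and 0.14 in Sd2. Ldha lay between them in Sc2, and below the lower quartile in Sd1 to Sd5 and Sd7, though only just in Sd4. How often intervals of other genes lay off 0 was not counted. Hk1 was close to 0 in most clusters, with 0.06 (-0.04 to 0.15) in Sd10 and -0.33 (-0.55 to -0.11) in Sd2. Pgk2 was higher in KO in 11 of 13 clusters by small amounts, and lower in 4 after centring and in 6 after thinning, with 0.27 (0.17 to 0.36) in Sc2 and -0.04 (-0.09 to 0.02) in Sd10. In Sc2, WT held 185 CPM of Pgk2 and KO 223 CPM, but after thinning the Sc2 ratio was -0.02 and cells with a Pgk2 UMI made up 35.9% in WT and 36.0% in KO.

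Ldhc differed in sign along the spermatids. Its log2 ratio was -0.05 in Sd1, -0.09 (-0.12 to -0.07) in Sd4 and -0.03 in Sd6, then 0.04 (0.01 to 0.07) in Sd7, 0.15 (0.10 to 0.20) in Sd8 and 0.16 (0.07 to 0.25) in Sd9, and -0.20 (-0.33 to -0.07) in Sd10. As the mean of single-cell CPM the Sd10 ratio was -0.10, and without the 5% of cells with most UMIs it was -0.12. As CPM, the KO library thus held more Ldhc from Sd7 to Sd9 and less in Sd10 and from Sd1 to Sd6. The Sd6 interval ran from -0.06 to 0.01. Mean UMIs per cell went the other way in Sd1, Sd2, Sd3 and Sd7. They were 86.0 in WT and 93.1 in KO in Sd1, and 23.8 and 22.7 in Sd7. In the other clusters from Sd4 to Sd10 they went the same way as CPM. In WT the Sd9 and Sd10 levels, 755 and 711 CPM, lay below the 865 CPM of Sc1, which was not read as expression. Over all cells 9.43 Ldhc UMIs were counted per 100 Prm1 UMIs in WT and 13.5 in KO. The part of free RNA in the late ratios was not tested. All of these Ldhc ratios were under 1.5-fold. The quartiles of the ratio over all genes read were -0.09 and 0.19 in Sd8 and -0.10 and 0.23 in Sd9. In Sd10 they were -0.17 and 0.23. The Ldhc ratios of Sd8 and Sd9 lay between these quartiles, and that of Sd10 lay below them. In Sd8 the median cell held 5 Ldhc UMIs in WT and 6 in KO, with quartiles of 3 and 9 in WT and 4 and 10 in KO.

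Signs of RNA quality and of neighbouring stages moved with genotype beside these ratios. Mitochondrial UMIs were a larger share in KO in all 13 clusters, with 0.356% in WT and 0.479% in KO in Sd8, 0.511% and 0.759% in Sd9, and 0.586% and 0.719% in Sd10. Prm1 made up 3.80% of UMIs in WT Sd10 and 3.11% in KO Sd10. Of the 2 macrophage markers read, Cd74 stood at 59.9 CPM in WT Sd10 and 0.567 CPM in KO Sd10, and C1qb at 56.7 and 48.8 CPM. In Sd9 all 3 red cell markers read were higher in WT, with Hbb-bs at 266 CPM in WT and 5.49 CPM in KO. Median depth in Sd10 was 5271 UMIs per cell in WT and 5287 in KO. With mitochondrial rows left out of the total, the ratios in Sd10 were -0.07 for Gapdhs and -0.31 for Tpi1. The part of mitochondrial UMIs, Prm1, macrophage and red cell markers and the libraries' free RNA in these ratios was not tested.

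Other steps of the pathway were read from 3 lists. Of 24 other general glycolysis enzymes 8 had 1 possible row, of 8 genes listed as germ cell enzymes 6, and of 36 genes of transport and neighbouring steps 11. All 25 had at least 100 WT UMIs. Of the 8 general enzymes 4 were highest in Sd9 or Sd10 in WT. Gpi1, glucose-6-phosphate isomerase, went from 27.9 CPM in Sc2 to 845 CPM in Sd10, Aldoa, the general aldolase, from 36.4 to 595 CPM, Pkm, pyruvate kinase, from 14.3 to 251 CPM, and Pgam2, the muscle form of phosphoglycerate mutase, from 916 to 1629 CPM. The other 4 were Pfkp, a phosphofructokinase, highest in Sd1 at 107 CPM and at 1.597 CPM in Sd10, Bpgm, highest in Sd3 at 211 CPM, and Hk2 and Ldhb, highest in Sg at 60.9 and 20.7 CPM. Of the hexokinases, Hk2 was thus highest in Sg and Hk1 in Sd10.

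The germ cell list also holds Fbp1, which is not a germ cell isoform. Of the 6 genes read from this list only Aldoart2, a retrogene aldolase, was highest in Sd10, at 650 CPM in WT and 705 CPM in KO. The other 5 were highest between Sc2 and Sd5 in WT. Ldhal6b, a further lactate dehydrogenase retrogene, stood at 937 CPM in Sd1 and 31.1 CPM in Sd10, a course like that of Ldhc. Fbp1, which runs the fructose bisphosphate step backwards, was highest in Sd1 at 775 CPM, the glycerol kinases Gk2 and Gykl1 in Sd2 at 745 CPM and in Sd3 at 649 CPM, and Pdha2, the retrogene subunit of pyruvate dehydrogenase, in Sd4 at 430 CPM.

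Among transport and neighbouring genes, Sord, which makes fructose from sorbitol, was highest in Sd10 at 2707 CPM in WT and 2694 CPM in KO, from 671 and 637 CPM in Sc2. The glucose transporter Slc2a3 was highest in Sc2 at 244 CPM and stood at 2.39 CPM in WT Sd10, and Slc2a8 was highest in Sd1 at 84.5 CPM. The monocarboxylate transporter Slc16a7 had a narrow peak in Sd5, at 640 CPM in WT and 569 CPM in KO, beside 37.5 and 46.5 CPM in Sd10. Bsg, the partner of such transporters, was highest in Sc1 at 832 CPM. Pdk3 and Pfkfb2, kinases that tune pyruvate dehydrogenase and phosphofructokinase, were highest in Sd4 at 138 and 81.5 CPM, and Pfkfb3 in Sd9 at 59.2 CPM. Gpd2, mitochondrial glycerol-3-phosphate dehydrogenase, was highest in Sd8 at 490 CPM. Dlat and Pdhx of the pyruvate dehydrogenase complex were highest in Sc2 at 178 CPM and in Sd1 at 70.5 CPM.

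**Figure D5:**
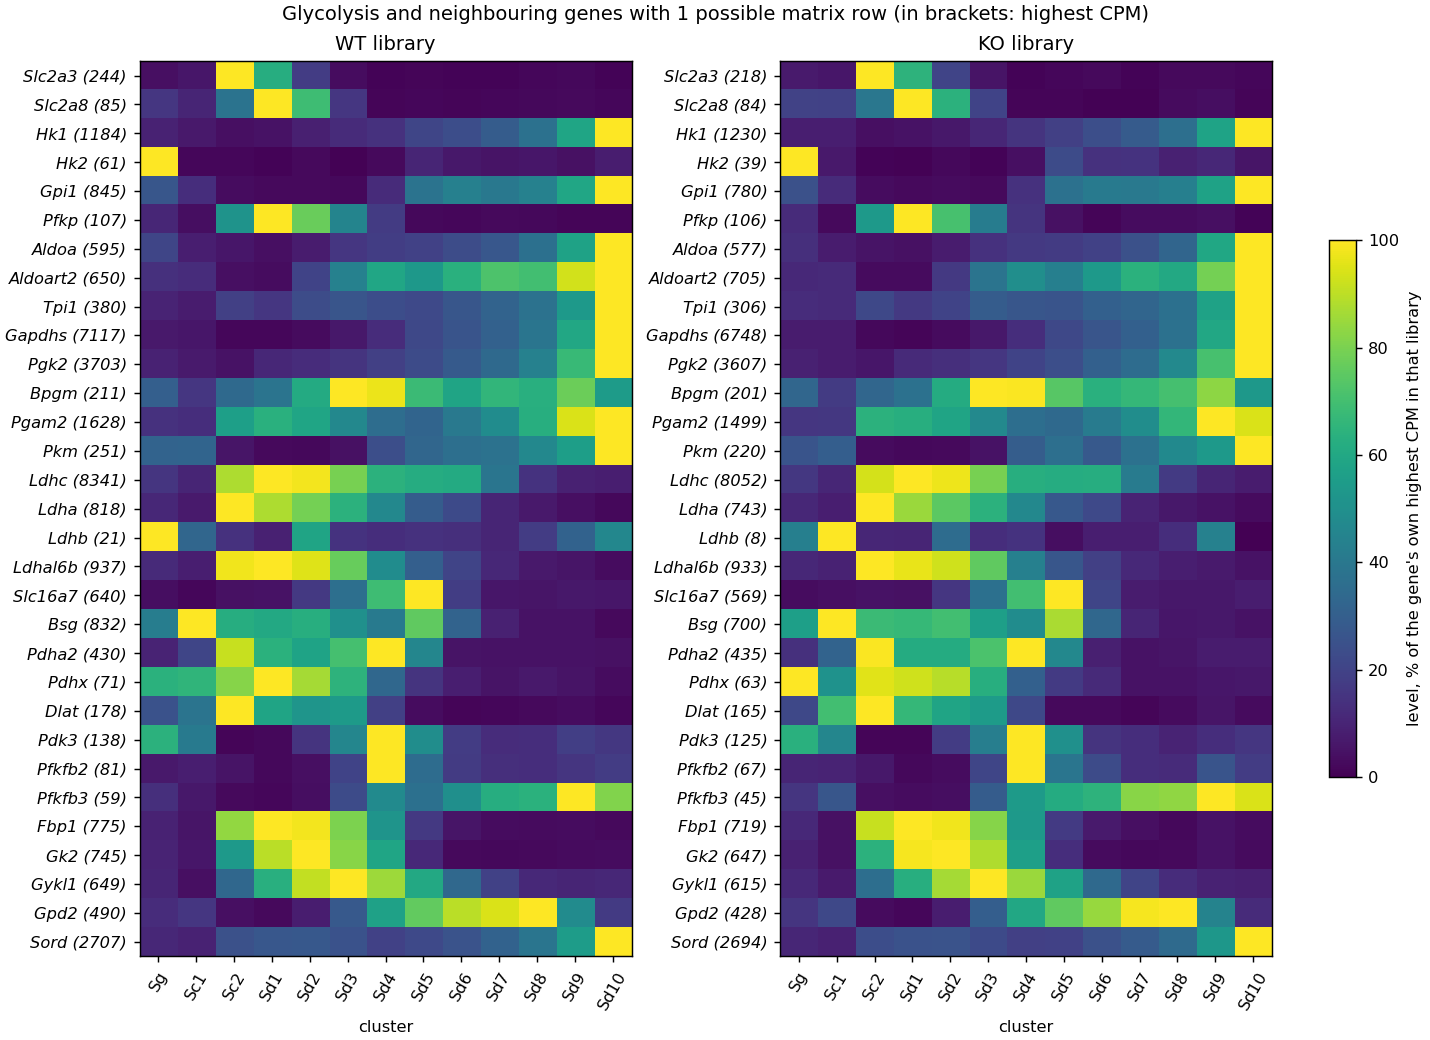
Level of 31 glycolysis and neighbouring genes (rows, with the highest CPM in brackets) over 13 clusters (columns) in the WT library (left) and the KO library (right), each as a percent of the highest level of that gene in that library. Hk1, Gpi1, Aldoa, Aldoart2, Tpi1, Gapdhs, Pgk2, Pkm and Sord were brightest in Sd10 in both libraries, while Ldhc, Ldha, Ldhal6b, Fbp1 and Gk2 were brightest between Sc2 and Sd2.

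Median log2 ratios of KO over WT in Sd10 were taken over genes with at least 100 UMIs in both libraries together. They were -0.12 over 5 of the 8 general enzymes and 0.12 over 3 of the 6 genes of the germ cell list. Over 4 of the 11 transport and neighbouring genes the median was -0.09. None of the first 2 lists held a gene 1.5-fold apart, and the third held 1, beside the 9.88% of all genes read in Sd10. This gene was Gpd2, at 83.8 CPM in WT and 53.3 CPM in KO.

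Genes with a course like that of a member over the 13 WT clusters were ranked by Pearson correlation of log2(CPM + 10) among 3671 genes. For Gapdhs these were Gsg1 (r = 0.999 in WT, 0.998 in KO), St6galnac2, Smcp of the sperm mitochondrial capsule, Gm11780 and Spz1, the last with r = 0.997 in WT and 0.998 in KO. For Pgk2 they were Dnajb4 (0.993 and 0.991), Rnf139, Akap12, Lrrc28 and Hk1, which was the only member among these neighbours, at 0.980 in WT and 0.966 in KO. For Ldhc they were Cetn1, a centrin (0.994 in both libraries), Prdx6b, Tsnaxip1, Ybx3, an RNA-binding protein of germ cells, and Cmtm2b, the last with 0.981 and 0.978. Correlations over 0.95 were common, with 162 genes for Gapdhs, 19 for Pgk2 and 33 for Ldhc. The points are clusters of 1 library each and share its depth and free RNA, so r is a description. Between members, r in WT was 0.9305 for Gapdhs and Pgk2, 0.973 for Gapdhs and Hk1, 0.946 for Ldhc and Ldha, and -0.628 for Gapdhs and Ldhc.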

How the data were processed

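Single testis cells of 1 WT and 1 KO library were analysed from the deposited UMI count matrix, without normalization. Per the labels and the study's methods, the authors trimmed reads with fastp 1 after FastQC 0.11.7, aligned them to mm10 with STAR 2.5.3a, counted them on Ensembl genes with featureCounts 1.6.2, collapsed UMIs, and filtered and clustered cells in Seurat 3.2.3. The deposited cell table gives library, cluster and percent of mitochondrial UMIs. Its UMI totals equal those of the matrix in 12408 of 12408 cells, and every deposited cell was kept. No doublet caller was run, and the 5% of cells with most UMIs were left out as an alternative.

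The 30 mt- symbols were matched to rows whose UMIs give the mitochondrial percent of every cell. Between them order was kept and only rows seen in fewer than 5 cells could lack a symbol, which gave 5476 symbols with 1 possible row and 86.9% of UMIs. UMIs were summed per cluster and library. Log2 ratios of KO over WT carry a prior of 1 UMI. The genes named are the members with 1 possible row, list genes with at least 100 WT UMIs and the 5 genes most like Gapdhs, Pgk2 and Ldhc in course. Tex13a, the upper limits for unread members, the motifs and the count over the 10 clusters from Sd1 to Sd10 were added after values were seen. Marker genes serve as a check of the clusters. The members and lists were chosen with earlier results of these data known. Alternatives were other totals, centring, mean of single-cell CPM, thinning to 3000 UMIs, a prior of 10 UMIs, and other minimums. Scripts in Python 3.11.15 with numpy 2.4.6 and scipy 1.17.1 were tested on simulated data. The depth ran from 749010 to 12722633 UMIs per cluster and library.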

Additional observations from a re-analysis of the deposited data

Results flagged for a closer look

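The log2 ratio of KO over WT of Ldhc was 0.16 in Sd9 and -0.20 in Sd10, with counting intervals above and below 0. The sign thus differed between these 2 spermatid clusters. The quartiles of the ratio over all genes read were -0.10 and 0.23 in Sd9, and -0.17 and 0.23 in Sd10. Ldhc lay between them in Sd9 and below them in Sd10. Intervals of Ldhc lay above 0 in 4 clusters and below 0 in 6. In WT the Ldhc levels of Sd9 and Sd10 lay below that of Sc1, which was not read as expression. The ratio of Gapdhs was 0.25 in Sc1, with 433 UMIs in WT and 377 in KO, and -0.34 in Sd1, with 670 and 1225 UMIs. The Sc1 ratio was 0.12 without the 5% of cells with most UMIs and 0.03 after thinning, below its counting interval, and the Sd1 ratio was -0.44 after thinning. The quartiles over all genes read were -0.15 and 0.18 in Sc1, and -0.12 and 0.10 in Sd1. Gapdhs lay above them in Sc1 and below them in Sd1. The interval of Gapdhs lay above 0 in 1 cluster and below 0 in 8. How often intervals of other genes lay off 0 was not counted. Neither difference between clusters was tested, since there is 1 library per genotype. In Sc1 and Sd1 the Gapdhs counts stood at 1.91 and 3.24 UMIs per 100 Prm1 UMIs in WT, beside 2.51 over all WT cells.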

How the results depend on the processing

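The count of member and cluster pairs at least 1.5-fold apart was 0 under each of 9 other settings, including a minimum of 10 UMIs and none. Over all genes the share apart went from 2.96% to 12.5% with a minimum of 10 UMIs and to 19.2% with none. The median ratio of the members in Sd10 lay between -0.13 (cells thinned to 3000 UMIs) and -0.06. The number of members highest in Sd10 was 4 in both libraries under each of 4 other settings. The Ldhc share of KO Sc2 was 90.7% as the mean over cells, outside the counting interval of 91.0%. Of 78 single ratios, 21 left their counting interval under thinning, 2 under centring on the median gene and 1 under the mean of single-cell CPM. Tpi1 was lower in KO in 9 of 13 clusters when thinned and in 11 under the others, and its Sd10 ratio reached -0.43 without the cells with most UMIs. The Sd10 ratio of Ldha turned to -0.34 when thinned. As UMIs per cell, the log2 ratio of Sd10 over Sc2 left its counting interval for all 6 members in both libraries and kept its sign, with 5.75 as CPM and 4.66 per cell for WT Gapdhs and 2.41 and 1.31 for WT Tpi1. Without the 20 most abundant rows in the total that of WT Gapdhs was 6.14. Thinning turned the Sc2 ratios of Pgk2 to -0.02 and of Tpi1 to 0.23. Replicates were not left out and no paired analysis was possible because each genotype has 1 library. Counting error is the only error known here, and genotype cannot be told apart from library.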
